A study of Mus musculus with 8 samples.

Results

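miR-192 and miR-194 are a pair of microRNAs that are highly expressed in liver and intestine, and their genes lie side by side in the mouse genome. Their TaqMan assays were followed here in liver RNA from mice exposed to carbon tetrachloride (CCl4). They were chosen by name from the assays of the TaqMan Array Rodent MicroRNA A Card, and both were found, 2 of the 381 assays listed for the card. Of these 381 assays, 168 gave a threshold cycle (Ct) on all 8 cards and 102 on none. miR-192 and miR-194 were determined on all 8 cards, and both passed the filter on low values (a Ct on every card and a mean Ct below 35), which 166 assays passed.

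The mice were female, of a strain labelled C57B6, and 4 weeks old when treatment began. CCl4 was diluted in corn oil and injected into the peritoneum for 1 week, 4 weeks or 8 weeks, and untreated mice formed the control group. Each group has 2 cards, so n = 2 for every group mean here. The labels give the dose as 1 mg/kg where the study's methods give it as 1 ml/kg, and no vehicle injection is stated for the untreated mice. Nothing in the labels says that the replicates of a group are separate animals, and the series description counts 4, 3 and 2 mice for 1, 4 and 8 weeks, so the p-values measure only the spread between these cards, which may be technical. RNA came from whole liver, in which fewer cells of a type and less of a microRNA per cell cannot be told apart.

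MicroRNAs are short RNAs that guide Argonaute proteins to messenger RNAs, mostly by pairing of their seed, bases 2 to 8 from the 5′ end. miR-192 and miR-194 are cut from shared primary transcripts, and transcription factors of the hepatocyte program, among them the HNF1 and HNF4 proteins, are known to act on these genes. CCl4 is turned into a reactive radical in hepatocytes around the central vein, where it kills cells, and repeated doses bring inflammation, activation of stellate cells and collagen deposition. The comparison of each time with untreated liver asked how the pair of microRNAs stood at an early, an intermediate and a late point of this exposure.

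The mature sequences below, from RefSeq (GRCm38.p6), show what each assay is aimed at and which microRNA shares a seed with them, with the seed in capitals. All 3 names of the card were matched by name to the 5p arm, since the assay's own target sequence was not used here.
miR-192-5p: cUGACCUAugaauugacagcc
miR-194-5p: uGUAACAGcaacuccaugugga
miR-215-5p: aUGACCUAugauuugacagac
Of 1679 mature mouse microRNA names in RefSeq, 2 carry the seed UGACCUA, miR-192-5p and miR-215-5p. They differ at 3 of 21 positions, counted from the 5′ end with the miR-192 base first, C1A, A12U and C20A, none of them in the seed. The seed GUAACAG is carried by 1 name, miR-194-5p. miR-192 and miR-194 therefore share a locus but no seed, and miR-192 and miR-215 share a seed but no locus.

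The hairpins show how the genes are arranged, with the mature 5p arm in capitals.
Mir192: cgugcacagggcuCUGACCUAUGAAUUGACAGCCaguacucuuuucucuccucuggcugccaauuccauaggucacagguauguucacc
Mir194-2: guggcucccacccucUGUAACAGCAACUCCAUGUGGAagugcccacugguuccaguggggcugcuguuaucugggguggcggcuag
Mir194-1: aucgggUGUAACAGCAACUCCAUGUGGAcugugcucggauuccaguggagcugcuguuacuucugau
Mir215: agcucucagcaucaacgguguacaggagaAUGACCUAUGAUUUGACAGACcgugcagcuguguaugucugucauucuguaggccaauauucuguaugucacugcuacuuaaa
In GRCm38.p6, Mir192 lies at chr19:6264844-6264932 on the plus strand and Mir194-2 at chr19:6264643-6264728 on the same strand, with 115 bases between them. Another copy, Mir194-1, lies at chr1:185313319-185313385 on the plus strand, 195 bases from Mir215 at chr1:185313581-185313692, and both overlap the protein-coding gene Iars2, which encodes a mitochondrial isoleucyl-tRNA synthetase. Both Mir194 genes give the same mature sequence, so the miR-194 assay reads the sum of a copy beside Mir192 and a copy beside Mir215.

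The 8 cards had 193 to 235 determined assays each, and the mean Ct of the 149 assays that stayed below Ct 35 on every card ran from 27.5 to 29.8. The faintest card was replicate 2 of 4 weeks of CCl4. miR-122, which marks hepatocytes, was determined on every card at a Ct between 21.95 and 24.16. A higher Ct means less template, and 1 cycle is taken as a factor of 2. Values below are log2 values, the mean Ct of the card over those 149 assays minus the Ct of the assay. They give a microRNA relative to the average of these assays in the same liver RNA. The 149 assays and the 166 tested assays include the endogenous control RNAs U6, snoRNA135 and snoRNA202. The median SD between replicates over the tested assays was 0.39 on this scale, and it was 0.42 for miR-192 and 0.32 for miR-194.

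miR-192 was 6.77 times lower in liver after 4 weeks of CCl4 than in untreated liver and stood between these levels after 1 week and 8 weeks. The untreated cards had a raw Ct of 21.41 and 20.83, the 1-week cards of 22.28 and 22.14, the 4-week cards of 23.49 and 25.96, and the 8-week cards of 21.28 and 23.34. Its log2 values were 6.94 and 7.16 in untreated liver, 6.49 and 6.46 in 1-week liver, 4.76 and 3.81 in 4-week liver, and 6.20 and 5.54 in 8-week liver. All 6 CCl4 cards lay below both untreated cards, and both 4-week cards lay below every other card. The raw Ct of the first 8-week card overlapped the untreated range, and the 4-week cards, 2.47 cycles apart in raw Ct, had log2 values with an SD of 0.67.

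miR-194 followed the same course at a lower signal. The untreated cards had a raw Ct of 24.01 and 23.22, the 1-week cards of 24.94 and 24.90, the 4-week cards of 25.95 and 27.95, and the 8-week cards of 23.87 and 25.90. Its log2 values were 4.34 and 4.77 in untreated liver, 3.83 and 3.70 in 1-week liver, 2.30 and 1.82 in 4-week liver, and 3.61 and 2.98 in 8-week liver. Again all 6 CCl4 cards lay below both untreated cards, and the 4-week cards were the lowest of the 8.

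**Figure D1:**
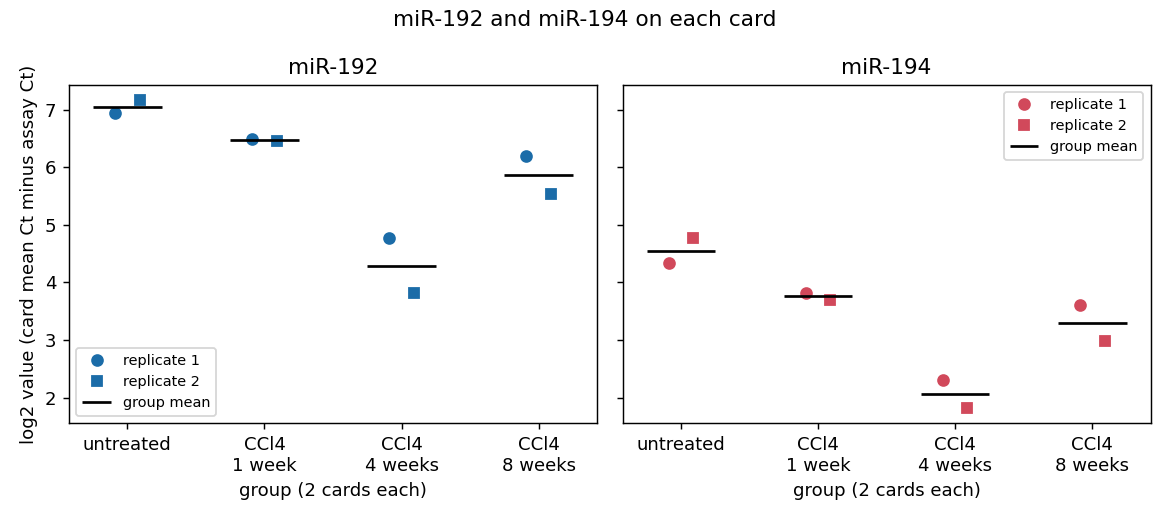
Log2 values (card mean Ct minus assay Ct) of miR-192 and miR-194 on each card, by group, with circles for replicate 1, squares for replicate 2 and lines for the mean of the 2 cards. The untreated cards are the highest and the 4-week cards the lowest for both microRNAs, for miR-192 between 6.94 and 7.16 against 3.81 and 4.76.

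As linear levels relative to the mean log2 value of the untreated cards, 1-week liver held miR-192 at 0.670 ± 0.0093 (SD, n = 2), 4-week liver at 0.156 ± 0.070 and 8-week liver at 0.454 ± 0.145. The corresponding levels of miR-194 were 0.578 ± 0.036, 0.180 ± 0.042 and 0.428 ± 0.131. The order of the group means was thus the same for both, untreated, 1 week, 8 weeks and 4 weeks from high to low, and within this order no card crossed into a neighbouring group on the log2 scale. The places of 1 week and 8 weeks turned under quantile normalization and with the endogenous control RNAs for both members, and with U6 alone, and for miR-194 without normalization. None of the steps between neighbours in this order passed the test. For untreated against 1 week the adjusted p was 0.281 for miR-192 and 0.117 for miR-194, for 1 week against 8 weeks 0.289 and 0.342, and for 8 weeks against 4 weeks 0.110 and 0.148 (limma, Benjamini-Hochberg over the 166 assays).

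At 4 weeks, limma gave a log2 difference from untreated of -2.76 for miR-192 (SE 0.40, 95% confidence interval -3.69 to -1.83, adjusted p = 0.00455). For miR-194 it gave -2.49 (SE 0.35, interval -3.30 to -1.68, adjusted p = 0.00455), which is 5.62 times lower. Both members were called, where 50 of the 166 tested assays (30.1%) passed the threshold in either direction and 28 (16.9%) did so as lower. Ranked from the lowest difference, miR-192 was 3 and miR-194 was 6 of 166, while the median over all tested assays was 0.03. Both calls held when any single card was left out, with adjusted p up to 0.0321 for each. They did not pass when cards were scaled to miR-122 (-2.53 for miR-192 and -2.26 for miR-194, adjusted p 0.0951 and 0.0969), to U6 alone (-1.26 and -0.99, adjusted p 0.128 and 0.241), or when undetermined values were set to Ct 40 and all such assays tested (adjusted p 0.0556 for both).

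At 1 week the changes were smaller and did not pass. The log2 difference was -0.58 for miR-192 (SE 0.40, interval -1.51 to 0.35) and -0.79 for miR-194 (SE 0.35, interval -1.60 to 0.02). At this time 54 of 166 assays (32.5%) were called, and the members ranked 58 and 48 from the lowest, against a median of -0.09 over all tested assays. The direction at 1 week depended on the scaling. Scaled to miR-122 the differences were 0.62 for miR-192 and 0.41 for miR-194, scaled to snoRNA202 alone they were 0.82 and 0.60, and scaled to U6 alone they were -2.96 and -3.17, both past the threshold. After quantile normalization miR-194 passed as well (-1.18, adjusted p = 0.0200).

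At 8 weeks the log2 difference was -1.18 for miR-192 (SE 0.40, interval -2.11 to -0.25, adjusted p = 0.141) and -1.26 for miR-194 (SE 0.35, interval -2.07 to -0.45, adjusted p = 0.0848). Neither passed after adjustment, and the unadjusted limma p was 0.0195 for miR-192 and 0.00761 for miR-194. Both differences were below 0 under every other scaling, though only at -0.065 and -0.145 with U6 alone. The other filters and models leave these log2 differences as they are, so they could not change the sign. With a trend of the variance on the mean level in the model, miR-194 passed, at an adjusted p of 0.0442. Few assays of the card were called at 8 weeks, 5 of 166 (3.01%), and miR-192 and miR-194 ranked 9 and 7 from the lowest. The 3 comparisons with untreated share the same 2 untreated cards, so their values stand side by side and are not independent of each other.

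**Figure D2:**
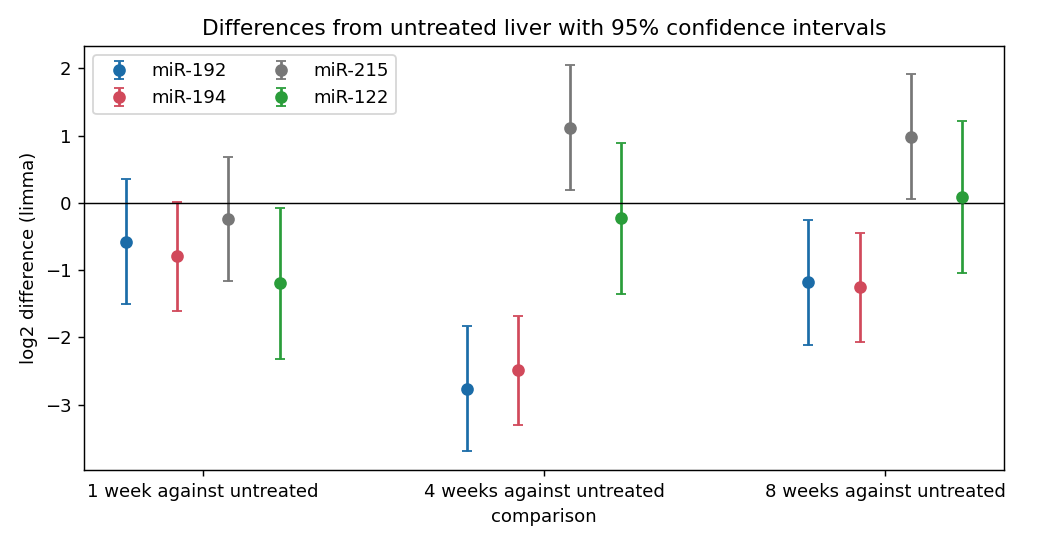
Log2 differences from untreated liver at each time (limma fit to all 8 cards), with bars for the 95% confidence interval, for miR-192, miR-194, miR-215 and miR-122. The intervals of miR-192 and miR-194 at 4 weeks, -3.69 to -1.83 and -3.30 to -1.68, lie below 0, where that of miR-122 spans 0 and that of miR-215 lies above it.

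The difference between times was tested directly. miR-192 was lower at 4 weeks than at 1 week by a log2 difference of -2.18 (SE 0.40, adjusted p = 0.00652), 4.54 times lower, and miR-194 by -1.70 (SE 0.35, adjusted p = 0.00903), 3.24 times lower. Many assays differed between these times, 78 of 166 (47%) in either direction and 42 (25.3%) as lower at 4 weeks, and the members ranked 20 and 27 from the lowest. The split of 36 higher and 42 lower depended on the scaling, with 72 and 20 for the endogenous control RNAs, 8 and 73 for snoRNA202 alone and 150 and 0 for U6 alone. For miR-194 the call was lost without replicate 2 of 4 weeks (-1.46, adjusted p = 0.0522), with the endogenous control RNAs (-0.82, adjusted p = 0.114), without normalization (-2.03, adjusted p = 0.134) and with undetermined values at Ct 40 (adjusted p = 0.0504). With U6 alone as the scale both differences turned and passed the threshold in the opposite direction, at 1.70 for miR-192 (adjusted p = 0.0210) and 2.19 for miR-194 (adjusted p = 0.00300).

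At 8 weeks the values were higher than at 4 weeks by 1.58 on the log2 scale for miR-192 (interval 0.65 to 2.51) and by 1.23 for miR-194 (interval 0.42 to 2.04), and neither difference passed the adjusted threshold. In that comparison 2 of 166 assays (1.2%) were called. After quantile normalization both differences passed, at 1.65 for miR-192 (adjusted p = 0.0346) and 1.20 for miR-194 (adjusted p = 0.0491). From 1 to 8 weeks the differences were -0.60 for miR-192 (interval -1.53 to 0.33) and -0.46 for miR-194 (interval -1.28 to 0.35), in a comparison where 40 assays (24.1%) were called. Both passed as higher at 8 weeks with U6 alone (2.89 and 3.03) and as lower with snoRNA202 alone (-1.78 and -1.65). Over all 6 CCl4 cards against the untreated cards, miR-192 was 2.84 times lower (log2 -1.51, SE 0.32, adjusted p = 0.0151) and miR-194 was 2.85 times lower (log2 -1.51, SE 0.28, adjusted p = 0.0104). That contrast called 48 of 166 assays (28.9%) in either direction and 27 (16.3%) as lower. Its split of 21 higher and 27 lower was 29 and 6 with the endogenous control RNAs, 40 and 2 with snoRNA202 alone and 8 and 0 with miR-122. The calls of miR-192 and miR-194 depended on the untreated pair and on the scaling. The adjusted p for miR-192 was 0.0985 without untreated replicate 1 and 0.109 without replicate 2, and for miR-194 it was 0.0797 without replicate 2. Both calls were also lost when scaled to miR-122 (-1.06 for miR-192, adjusted p = 0.409, and -1.07 for miR-194, adjusted p = 0.394), to U6 alone or to snoRNA202 alone, without normalization and with undetermined values at Ct 40, and that of miR-192 with the endogenous control RNAs (-1.22, adjusted p = 0.0505).

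**Figure D3:**
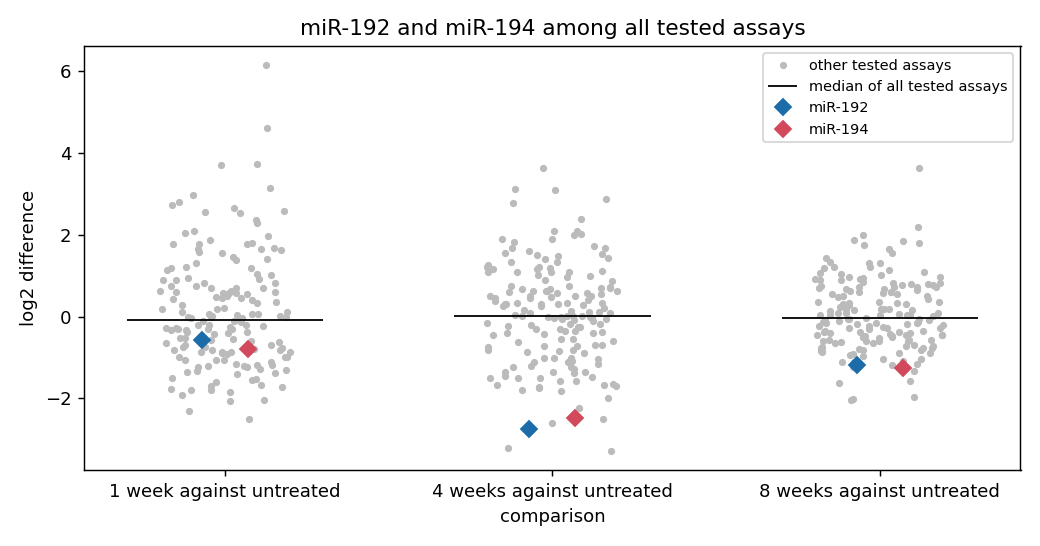
Log2 differences from untreated liver for the 166 tested assays at each time, with gray points for the other assays (spread sideways at random), a line for the median and diamonds for miR-192 and miR-194. At 4 weeks miR-192 (-2.76) and miR-194 (-2.49) lie near the lower edge, and at 1 week (-0.58 and -0.79) they lie within the bulk of the assays.

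The distance between miR-192 and miR-194 varied little from card to card. The Ct of miR-194 minus that of miR-192, which needs no scaling between cards, was 2.60 and 2.39 cycles in untreated liver, 2.66 and 2.76 in 1-week liver, 2.46 and 1.99 in 4-week liver, and 2.59 and 2.56 in 8-week liver. The lowest of these was the faint replicate 2 of 4 weeks, and both 4-week cards lay below both 1-week cards. The group means were 2.50 in untreated liver, 2.71 in 1-week liver, 2.23 in 4-week liver and 2.58 in 8-week liver, on both sides of the untreated mean. A mean over all CCl4 cards therefore says little about single times. It was 2.50 ± 0.27 (SD, n = 6) against 2.50 ± 0.15 (n = 2) over the untreated cards, a difference of 0.0083 (exact two-sided permutation p = 1, where 28 splits allow no p below 0.0357). The 4-week fall of both members was several-fold, while their ratio varied with an SD of 0.24 cycles over the 8 cards. A Ct difference between assays is not a ratio of molecules, since assays differ in efficiency.

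Each member was the closest companion of the other. When all 165 other tested assays were ordered by the SD of their within-card Ct difference over the 8 cards, miR-194 had rank 1 for miR-192 and miR-192 had rank 1 for miR-194, both with an SD of 0.236 cycles. The median SD was 1.34 cycles for miR-192 and 1.22 for miR-194. Among all 13695 pairs of tested assays this pair had rank 37, where the smallest SD was 0.105 and the median 1.07. Without replicate 2 of 8 weeks, miR-192 had rank 2 for miR-194, and leaving out any other card kept rank 1 for both. Without replicate 2 of 4 weeks the SD of the pair was 0.122. The likeness is a description over 8 cards that share 2 per group, and large changes that 2 assays have in common weigh in it.

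After miR-194, the assays most like miR-192 were miR-193 (SD 0.380), miR-101a (0.429), miR-203 (0.478) and miR-126-5p (0.484). After miR-192, those most like miR-194 were miR-30c (0.348), miR-101a (0.355), miR-802 (0.415) and miR-126-5p (0.444). All of these were lower at 4 weeks than in untreated liver in the limma fit, by log2 differences of -3.22 for miR-193, -2.23 for miR-101a, -2.49 for miR-203, -1.65 for miR-126-5p, -1.69 for miR-30c and -3.28 for miR-802. They were picked for likeness to the members over the same cards, so lower values at 4 weeks come with that choice. As background, miR-802 and miR-193 are known as enriched in hepatocytes, miR-126-5p comes from an intron of the endothelial gene Egfl7 and miR-203 is known from surface epithelia. Which cells gave these signals here cannot be told from whole-liver RNA.

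miR-215, which has the seed of miR-192 and the gene beside Mir194-1, did not follow either member. It is a weak signal in these livers. Its Ct averaged 32.02 over the cards, while that of miR-192 averaged 22.6 and that of miR-194 averaged 25.1. Its log2 values were -3.91 and -4.03 in untreated liver, -3.98 and -4.43 in 1-week liver, -2.36 and -3.35 in 4-week liver, and -2.77 and -3.21 in 8-week liver. All 4 cards of 4 and 8 weeks lay above the untreated cards. The log2 difference from untreated was -0.24 at 1 week (adjusted p = 0.653), 1.12 at 4 weeks (interval 0.19 to 2.05, adjusted p = 0.0676) and 0.98 at 8 weeks (adjusted p = 0.172), so no time passed, while 4 weeks against 1 week gave 1.36 (adjusted p = 0.0270). That call was lost under 7 of the 10 other scalings, among them the geometric mean of all determined assays (1.49, adjusted p = 0.0519) and snoRNA202 alone (0.36, adjusted p = 0.609). At 4 weeks the difference was above 0 under every scaling run, from 0.28 with no normalization to 2.63 with U6 alone, and it passed with the endogenous control RNAs (1.76, adjusted p = 0.0210) and with U6 alone. With U6 alone miR-215 also passed as lower at 1 week (-2.615, adjusted p = 0.000658) and as higher at 8 weeks (2.095, adjusted p = 0.0285). Its 1-week difference was above 0 with miR-122 (0.96), snoRNA135 alone (0.03) and snoRNA202 alone (1.155).

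Set against miR-215 within a card, the signal of miR-192 was 10.85 and 11.19 cycles stronger in untreated liver, 10.47 and 10.89 in 1-week liver, 7.12 and 7.16 in 4-week liver, and 8.97 and 8.75 in 8-week liver. For miR-194 the same distance was 8.25 and 8.80, 7.81 and 8.13, 4.66 and 5.17, and 6.38 and 6.19 cycles. The 4-week cards were lowest in both ratios, below every card of the other groups. Over all CCl4 cards the mean distance differed from untreated by -2.13 cycles for miR-192 (exact permutation p = 0.107) and by -2.14 for miR-194 (exact permutation p = 0.0714). These means pool 1-week cards, with a mean of 10.68 for miR-192 near the 11.02 of untreated liver, with 4-week cards at 7.14. The ratios to miR-215 and miR-122 were chosen after the values were seen, and over the 5 ratios tested the adjusted p was 0.268 for both ratios to miR-215. The 28 splits allow no p below 0.0357, so a single ratio could not pass after this adjustment, and the missing call decides nothing.

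miR-122, the most abundant microRNA of hepatocytes, took another course as well. Its log2 values were 6.40 and 5.60 in untreated liver, 4.61 and 5.0 in 1-week liver, 5.45 and 6.08 in 4-week liver, and 5.51 and 6.66 in 8-week liver. The lowest group was 1 week, and the 4-week and 8-week cards overlapped the untreated cards. Its log2 difference was -1.20 at 1 week (adjusted p = 0.0949), -0.23 at 4 weeks (adjusted p = 0.740) and 0.09 at 8 weeks (adjusted p = 0.921), and at 4 weeks its sign changed with the scaling (0.77 after quantile normalization). At 1 week miR-122 passed with the mean of all determined assays (-1.56, adjusted p = 0.0393), with their geometric mean (-1.54, adjusted p = 0.0380) and with U6 alone, and was 0.20 with snoRNA202 alone. The Ct of miR-122 minus that of miR-192 was 0.54 and 1.56 cycles in untreated liver, 1.88 and 1.46 in 1-week liver, -0.69 and -2.27 in 4-week liver, and 0.69 and -1.12 in 8-week liver. miR-192 thus came up before miR-122 on all cards of untreated liver and of 1 week and after it on both cards of 4 weeks. Over all CCl4 cards against untreated the ratio of miR-192 to miR-122 gave a difference of -1.06 cycles (exact permutation p = 0.464). That of miR-194 to miR-122 gave -1.07 (exact permutation p = 0.429). Neither passed, and the adjusted p over the 5 ratios was 0.580 for both. For miR-192 these means pool 1-week cards, at 1.67 above the 1.05 of untreated liver, with 4-week cards at -1.48. Scaled to miR-122, 4 weeks against 1 week passed in limma for miR-192 (-3.15, adjusted p = 0.0178) and miR-194 (-2.665, adjusted p = 0.0278).

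**Figure D4:**
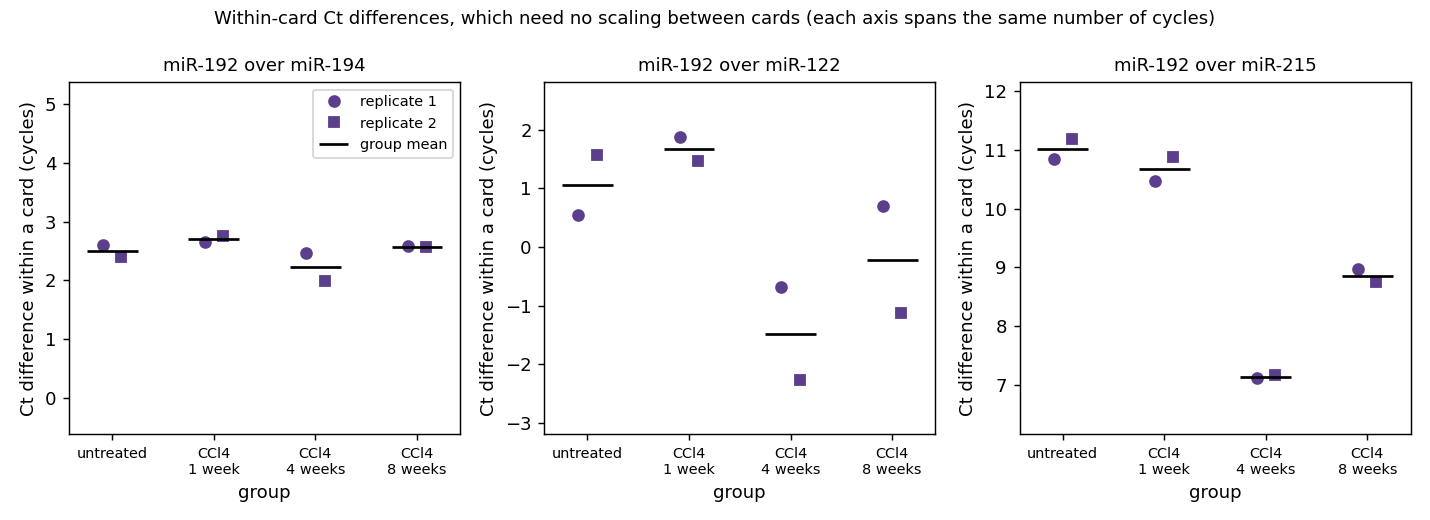
Within-card Ct differences by group, in cycles, for miR-192 over miR-194, over miR-122 and over miR-215, with circles for replicate 1, squares for replicate 2 and lines for the mean of the 2 cards. All 3 axes span the same number of cycles. The distance to miR-194 stays between 1.99 and 2.76, and the group means of all 3 distances are lowest at 4 weeks.

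Of other microRNAs enriched in hepatocytes, 8 were listed, 7 were on the card and all 7 were tested. At 4 weeks 5 of the 7 were lower and none higher, where 16.9% of all tested assays were lower, and their median log2 difference was -1.49 against 0.03 over all tested assays. They were miR-802 (-3.28, adjusted p = 0.000921), miR-193 (-3.22, adjusted p = 0.00636), miR-101a (-2.23, adjusted p = 0.0142), miR-148a (-1.49, adjusted p = 0.00758) and miR-365 (-1.46, adjusted p = 0.00988). At 1 week 2 were lower, miR-802 (-1.72, adjusted p = 0.00570) and miR-365 (-1.19, adjusted p = 0.0190), and at 8 weeks 1 was, miR-802 (-2.04, adjusted p = 0.0123), with medians of -0.80 and -0.83. The summed linear level of the list, relative to the untreated mean, was 0.764 to 1.24 in untreated liver, 0.394 to 0.487 in 1-week liver, 0.615 to 0.927 in 4-week liver and 0.676 to 1.39 in 8-week liver. miR-122 made up 80.7% to 95.6% of this sum on the 8 cards, so the sum gives the course of miR-122 and not that of the 5 lower members. Over all tested assays, 24 of 166 (14.5%) were lower at 1 week and 1 of 166 (0.602%), miR-802 itself, at 8 weeks. The 1-week split of 30 higher and 24 lower as reported was 18 and 33 with the mean of all determined assays, 38 and 0 with miR-122, 81 and 0 with snoRNA202 alone and 2 and 124 with U6 alone. The 4-week split, 22 and 28 as reported, was 45 and 11 with the endogenous control RNAs and 33 and 10 with snoRNA202 alone. It was 80 and 2 with U6 alone and 3 and 0 with miR-122. With miR-122 as the scale, none of the 5 was therefore called as lower. With the scaling as reported, miR-192 and miR-194 were lower at 4 weeks, as were 5 of the 7 in this list, while miR-122 and miR-215 were not. The list was written with earlier results of these data known, so its share of lower calls is a description and not a test. Assays of other lists were also lower at 4 weeks, miR-203 (-2.49), miR-126-3p (-1.83) and miR-126-5p (-1.65).

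Some microRNAs listed as markers of other liver cells were called at 1 week or 4 weeks against untreated, and none of them at 8 weeks. Of 8 leukocyte microRNAs, 7 were higher at 1 week, 5 at 4 weeks and none at 8 weeks, where 30 (18.1%), 22 (13.3%) and 4 (2.41%) of the 166 tested assays were higher. At 1 week these were miR-146b (3.73), miR-342-3p (2.55), miR-223 of myeloid cells (2.06), miR-150 (1.97), miR-146a (1.79), miR-142-5p (1.63) and miR-155 (1.40), as log2 differences from untreated, and miR-142-3p was the lowest at -0.20. At 4 weeks they were miR-223 (2.77), miR-142-3p (2.00), miR-342-3p (1.69), miR-142-5p (1.60) and miR-155 (1.03), with miR-150 the lowest at 0.13, and at 8 weeks the list ran from 0.02 for miR-150 to 1.22 for miR-223. From 1 to 4 weeks, where 21.7% of all tested assays were higher and 25.3% lower at 4 weeks, 1 of the 8 was higher (miR-142-3p, 2.20, adjusted p = 0.00343), 2 lower (miR-146b, -2.54, adjusted p = 0.00756, and miR-150, -1.84, adjusted p = 0.00614) and a median of -0.58. The summed linear level of the list, relative to the untreated mean, ran from 0.749 to 1.25 in untreated liver, from 3.97 to 4.12 in 1-week liver, from 2.73 to 3.74 in 4-week liver and from 1.41 to 2.04 in 8-week liver. Of 4 tested microRNAs of stellate and smooth muscle cells, 2 were higher at 4 weeks, miR-214 (1.69) and miR-199a-3p (1.10), and miR-143 was the lowest at -0.34. miR-145, which made up 46.4% to 61.9% of the sum of this list, did not pass at 4 weeks (0.33, adjusted p = 0.520). That sum was 0.941 to 1.06 in untreated liver, 0.989 to 1.06 in 1-week liver, 1.24 to 1.68 in 4-week liver and 0.936 to 1.17 in 8-week liver.

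Endothelial and epithelial microRNAs were also listed. Both strands of miR-126 of endothelium, which come from 1 hairpin, were lower at 4 weeks, where 16.9% of all tested assays were, miR-126-3p by -1.83 (adjusted p = 0.0142) and miR-126-5p by -1.65 (adjusted p = 0.0294). The endothelial sum, of which miR-126-3p made up 89.9% to 94.6%, was 0.828 to 1.17 in untreated liver, 1.46 to 1.53 in 1-week liver, 0.212 to 0.369 in 4-week liver and 0.392 to 0.699 in 8-week liver. Of 8 epithelial microRNAs of bile duct and gut, 6 were tested, 1 of which was higher at 1 week (miR-31, 0.90), against 18.1% of all tested assays, and 2 of which were lower at 4 weeks, against 16.9%, miR-203 (-2.49, adjusted p = 0.00168) and miR-31 (-1.24, adjusted p = 0.0142). The other tested members had log2 differences at 4 weeks of -1.35 for miR-429, -1.02 for miR-200a, -0.02 for miR-200b and 0.17 for miR-200c, and none of these passed. The epithelial sum, of which miR-31 made up 55.7% to 73.5%, was 0.923 to 1.08 in untreated liver and 1.55 to 1.66 at 1 week. It was 0.431 to 0.436 at 4 weeks and 0.577 to 0.705 at 8 weeks. miR-141 and miR-375 were determined on 7 and 6 of the 8 cards. Of the 2 erythroid microRNAs tested none was called at any time against untreated. Scaled to miR-122, no tested assay was called as lower at 4 weeks, and with U6 alone 2 were. The part of these shifts in the levels of miR-192 and miR-194 was not tested.

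The scaling of the cards set the size of the changes of both members, while the filter on low values and the variance model left the log2 differences as they were and moved only the adjusted p. At 4 weeks the differences ran from -3.61 with no normalization to -1.26 with U6 alone for miR-192 and from -3.34 to -0.99 for miR-194. They stayed below 0 under all 16 other settings and passed the threshold under 13 of them, for each member. U6, a nuclear RNA used as an endogenous control, put the median log2 difference of all tested assays at -2.48 at 1 week and 1.54 at 4 weeks when used alone, where it was -0.09 and 0.03 as reported. Its raw Ct was 18.42 and 17.24 in untreated liver, 15.76 and 16.17 in 1-week liver, 19.47 and 20.89 in 4-week liver, and 17.74 and 20.17 in 8-week liver.

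**Figure D5:**
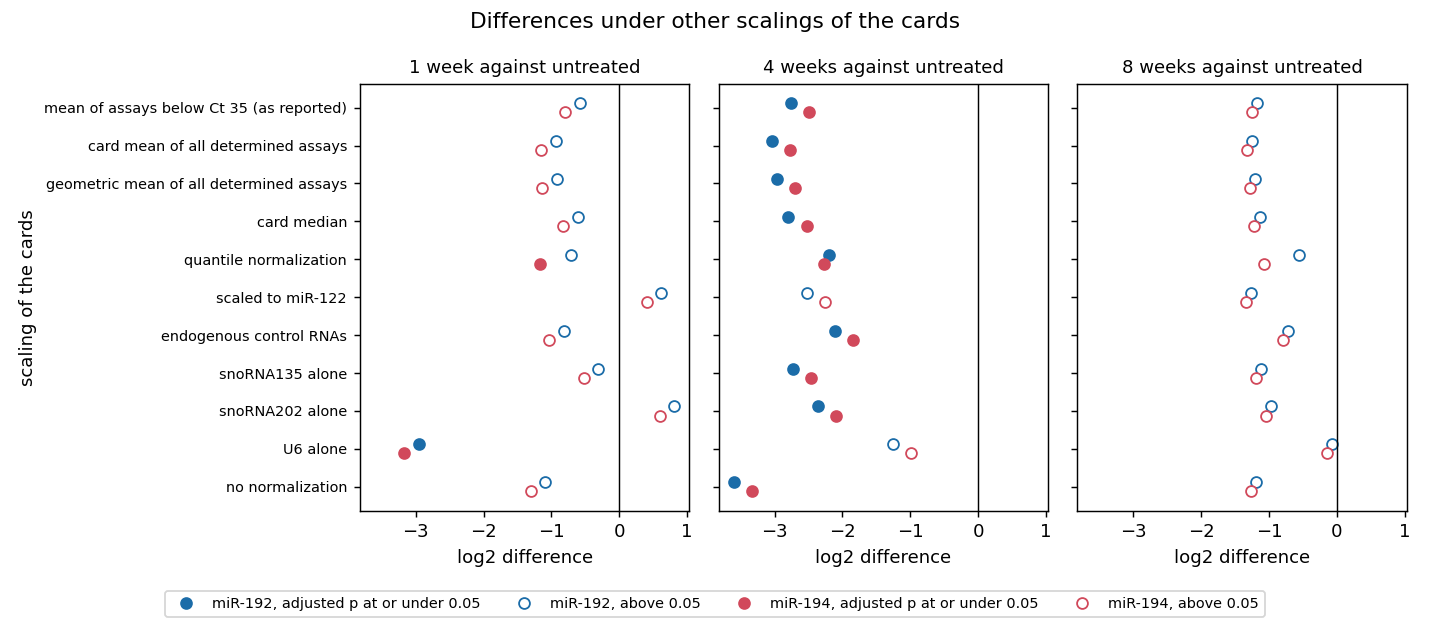
Log2 differences from untreated liver for miR-192 and miR-194 at each time under 11 scalings of the cards, with filled circles for an adjusted p at or under 0.05 (limma) and open circles above it. At 4 weeks all points lie below 0, at 1 week the scalings to miR-122 and to snoRNA202 lie above 0, and at 8 weeks no circle is filled.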

How the data were processed

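Total RNA from whole liver (mirVana kit) was reverse transcribed with the Megaplex Rodent Pool A primers without pre-amplification and run on TaqMan Array Rodent MicroRNA A Cards. The authors deposited raw Ct values, 1 per assay and card, not normalized and listed for each card on its own, with undetermined wells empty. Whether a card holds RNA of 1 mouse or several is not given in the sources used here. Their unit is other than a count, so depth is not defined and the number of cards limits the precision. A deposited table of the authors' own fold changes, made after geometric mean normalization of each plate, was not used. Groups and replicate numbers came from the labels.

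To obtain log2 values, the Ct of each assay was subtracted from its card's mean Ct, taken over 149 assays that stayed below Ct 35 throughout. Assays with a Ct on all cards that averaged below 35, 166 in number, were fitted in R 4.3.3 by limma 3.58.1 (lmFit, then eBayes, 8 cards in 4 groups, prior degrees of freedom 3.47), with Benjamini-Hochberg adjustment within each comparison and a threshold of 0.05. The procedure was tested on simulated data with independent noise for each assay and card. These data held no shared shift of a card, so that test does not bear on the choice of scaling. Ratios within a card were compared by exact permutation over cards. The assays named were the members, miR-215, miR-122, the 5 assays most like each member, and, of each cell type list, all those called against untreated and those with the lowest or highest value at the times described. Also named were miR-145, as the largest part of its list's sum, and the remaining epithelial assays, tested or not. The members, lists and named assays were chosen with earlier results of these data known. Mature and hairpin sequences and their positions are from RefSeq (GRCm38.p6), with the 3 names printed as sequences all matched. Other scalings, filters, variance models, the replicate number as a block and each card left out were tried. Scaling to U6, snoRNA135 or snoRNA202 alone and a crossed block were chosen after the data were seen. Plots used matplotlib 3.10.9.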

Additional observations from a re-analysis of the deposited data

Results flagged for a closer look

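The change of miR-192 with time under CCl4 was marked for a closer look because the effects at 1 week and at 4 weeks differed in limma's test of the difference itself, with a log2 difference of -2.18 for 4 weeks against 1 week. The same held for miR-194, at -1.70. In both cases both 4-week cards lay below both 1-week cards. With U6 alone as the scale both turned and passed the threshold in the opposite direction (1.70 and 2.19).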

How the results depend on the processing

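Of 334 values recomputed for the members, counting leave-one-out refits, 289 kept their direction and side of the threshold. Many of these could not change direction. The filters, the models and the omission of a card outside the comparison leave the log2 difference as it is. All 13 reversals came from other scalings. Scaled to miR-122, the 1-week differences reversed (0.62 for miR-192, 0.41 for miR-194), and the calls were lost at 4 weeks (-2.53, -2.26) and for any CCl4 (-1.06, -1.07). With U6 alone, 1 week passed (-2.96, -3.17), 4 weeks did not (-1.26, -0.99), nor did any CCl4 (-1.43, -1.43), and the differences reversed and passed in the opposite direction for 4 against 1 week (1.70, 2.19) and 8 against 1 week (2.89, 3.03). With snoRNA202 alone, 1 week reversed (0.82, 0.60), 8 against 1 week passed (-1.78, -1.65) and any CCl4 did not (-0.84, -0.85). After quantile normalization, miR-194 passed at 1 week (-1.18), 8 against 1 week reversed (0.16, 0.10) and 8 against 4 weeks passed (1.65, 1.20). With the endogenous controls, miR-194 was lost for 4 against 1 week (-0.82) and miR-192 for any CCl4 (-1.22), and 8 against 1 week reversed (0.10, 0.24). Without normalization, miR-194 was lost for 4 against 1 week (-2.03) and reversed for 8 against 1 week (0.035), and any CCl4 was lost (-1.96, -1.97). With undetermined values at Ct 40, the values could not move, since the card means and the Ct of the members stayed the same. With more assays tested, 4 weeks (-2.76, -2.49), miR-194 for 4 against 1 week (-1.70) and any CCl4 (-1.51, -1.51) no longer passed. With an eBayes trend, miR-194 passed at 8 weeks (-1.26). The other causes were not tested.

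Leaving out each card in turn, the ranges were -0.69 to -0.46 and -1.01 to -0.57 at 1 week for miR-192 and miR-194, -3.23 to -2.29 and -2.73 to -2.25 at 4 weeks, -1.51 to -0.85 and -1.57 to -0.94 at 8 weeks, -2.66 to -1.71 and -1.94 to -1.46 for 4 against 1 week, -0.93 to -0.27 and -0.78 to -0.15 for 8 against 1 week, 1.11 to 2.06 and 0.91 to 1.55 for 8 against 4 weeks, and -1.66 to -1.35 and -1.73 to -1.30 for any CCl4. The within-card difference of miR-192 and miR-194 ran from -0.097 to 0.113, on both sides of 0 (without untreated replicate 2, -0.097), and the likeness ranks from 1 to 2.

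The count of assays called (limma) moved more. Leave-one-out gave 15 to 59 at 1 week, 22 to 51 at 4 weeks, 0 to 6 at 8 weeks, 30 to 75 for 4 against 1 week, 4 to 49 for 8 against 1 week, 0 to 1 for 8 against 4 weeks and 7 to 46 for any CCl4. In the order 1 week, 4 weeks, 8 weeks, 4 against 1 week, 8 against 1 week, 8 against 4 weeks and any CCl4, and naming only counts that moved by over 1.5 times, no normalization gave 5, 10, 1, 29, 8, 0 and 2. U6 alone gave 126, 82, 40, 150, 158, 1 and 13. Ct 40 gave 24, 3, 0, 32, 8, 0 and 6. Scaling to miR-122 gave 3 at 4 weeks, 0 at 8 weeks, 41, 1 for 8 against 4 weeks and 8 for any CCl4. At 4 weeks snoRNA135 alone gave 33. At 8 weeks both means over all determined assays gave 1, the endogenous controls 12, a mean Ct below 32 3, the trend 11, a fit to the compared groups alone 0 and a threshold of 0.10 15. For 8 against 1 week, quantile normalization gave 20 and snoRNA202 alone 81. For 8 against 4 weeks, quantile normalization gave 9, a fit to the compared groups alone 0, a threshold of 0.10 6, and the means, median, endogenous controls and single snoRNAs 1. For any CCl4, the means over all determined assays gave 24 and 25 and snoRNA135 alone 26. Where none was called, 11 to 45 assays had an unadjusted p under 0.05. Higher and lower calls at 4 weeks, 22 and 28 as reported, were 12 and 27 with the mean of all determined assays, 45 and 11 with the endogenous controls, 80 and 2 with U6 alone, 33 and 10 with snoRNA202 alone and 3 and 0 with miR-122. The median log2 difference of all assays at 1 week, -0.09 as reported, was -0.45, -0.33, -2.48, 1.31 and 1.12 under the same settings.

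The labels give the replicates of each group only a number. The difference of replicate 2 from replicate 1 was correlated between groups over the 166 tested assays. This correlation ran from -0.50 for untreated and 8 weeks to 0.43 for 4 and 8 weeks. Correlations of either sign do not show whether same-numbered cards belong together, and what the cards share was not tested. With the replicate block, 50, 49, 4, 75, 38, 0 and 43 assays were called, and both members at 4 weeks had an adjusted p of 0.00718. A crossed replicate block, chosen after seeing the data, called 17 at 8 weeks, 64 for 8 against 1 week and 11 for 8 against 4 weeks.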
